A study of Mus musculus with 18 samples.

Results

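The 41 genes described here encode enzymes and regulators of lipid and cholesterol metabolism. They were examined for binding by BMAL1, a transcription factor of the circadian clock, in liver, kidney and heart. They were chosen by name, with earlier results of these data known, so the counts are descriptions. A gene was counted as bound in a tissue when the centre of a deposited peak lay inside the gene or within 10 kb of either end. All 41 were found among 21883 protein-coding genes of the RefSeq annotation of the mouse build GRCm38.p6. Binding was measured by chromatin immunoprecipitation and sequencing (ChIP-seq), which recovers the DNA that a protein is crosslinked to, in wild type C57BL/6 mice 3 to 6 months old. The mice lived in a daily cycle of 12 h light and 12 h darkness with free access to food, and all tissues were taken at 6 h after lights on (zeitgeber time 6). Each tissue contributed 3 ChIP and 3 input libraries, 18 in all, and the tissues came from the same animals. No other genotype, time point or treatment was part of the series, so neither rhythm nor dependence on BMAL1 is measured.

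Each tissue was represented by 1 peak list that the authors made from all its libraries together. There were 4813 peaks for liver, 4034 for kidney and 2519 for heart, each with a whole-number score whose scale is not given. Scores were therefore read only within a list, as ranks (rank 1 is the highest score, and tied peaks share the best rank) or as rank percentiles (0 is the strongest). Read depth is unknown and there is no value per animal, so no difference between tissues has an error or a test, and a site missing from a list may be unbound or below what that list could detect. For the 3 input libraries of heart, 1 label (the source) says kidney where title and tissue say heart, and which is right was not tested. Whole tissues hold several cell types, and a peak in few cells and a weak peak in all cells cannot be told apart.

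BMAL1 pairs with CLOCK and binds E-boxes, short elements with the core CACGTG, and binding in mouse liver is known to be high during the light phase. The clock is known to time lipid metabolism in liver. In the pathways examined here, acetyl-CoA is built into sterols or into fatty acids, fatty acids are elongated and desaturated and joined to glycerol as triglyceride, and stored or circulating triglyceride is hydrolysed again so that the fatty acids can be burned in mitochondria. Liver carries out all of these steps, kidney tubules and heart muscle rely largely on fatty acid oxidation, and secreted lipases and their inhibitors decide which tissue takes up the fat.

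For some of the peaks the underlying DNA could be read from RefSeq promoter windows of GRCm38.p6, which run from 250 bases before to 50 bases after an annotated start. They are shown so that the E-box, where present, can be placed relative to the peak. Each line gives the part of the window covered by the named peak. For Insig1 the whole window is given, because the E-box in that window lies outside the peak. Letters are lower case, and capitals mark CACGTG or the related element CACGTT, which reads as AACGTG from the opposite strand.
Tada2a promoter at the upstream end of Acaca, kidney peak, chr11:84129539-84129726, minus strand: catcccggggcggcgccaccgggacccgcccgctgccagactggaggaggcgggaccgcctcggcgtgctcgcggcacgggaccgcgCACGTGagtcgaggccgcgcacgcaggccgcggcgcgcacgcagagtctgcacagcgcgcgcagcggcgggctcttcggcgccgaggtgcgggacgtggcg
Lpin2 promoter, kidney peak, chr17:71183418-71183581, plus strand: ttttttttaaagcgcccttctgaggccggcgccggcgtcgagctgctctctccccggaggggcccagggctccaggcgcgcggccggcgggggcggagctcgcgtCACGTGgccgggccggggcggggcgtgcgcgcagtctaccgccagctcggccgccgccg
Lipe promoter, kidney peak, chr7:25396019-25396206, minus strand: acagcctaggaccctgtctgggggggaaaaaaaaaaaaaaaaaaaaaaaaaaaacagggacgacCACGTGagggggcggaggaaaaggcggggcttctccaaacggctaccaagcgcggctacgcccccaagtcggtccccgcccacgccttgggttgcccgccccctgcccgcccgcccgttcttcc
Elovl6 promoter, liver peak, chr3:129532255-129532435, plus strand: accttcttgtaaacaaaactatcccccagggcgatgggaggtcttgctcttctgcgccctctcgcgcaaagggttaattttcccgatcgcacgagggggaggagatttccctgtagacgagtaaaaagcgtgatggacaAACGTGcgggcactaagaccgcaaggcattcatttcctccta
Dvl2 promoter near Acadvl, kidney peak, chr11:70000439-70000626, plus strand: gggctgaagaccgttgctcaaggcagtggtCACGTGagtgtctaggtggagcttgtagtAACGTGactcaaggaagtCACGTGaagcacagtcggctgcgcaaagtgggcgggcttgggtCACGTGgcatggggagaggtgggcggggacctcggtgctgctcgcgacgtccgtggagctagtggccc
Tesmin promoter near Cpt1a, kidney peak, chr19:3389216-3389403, plus strand: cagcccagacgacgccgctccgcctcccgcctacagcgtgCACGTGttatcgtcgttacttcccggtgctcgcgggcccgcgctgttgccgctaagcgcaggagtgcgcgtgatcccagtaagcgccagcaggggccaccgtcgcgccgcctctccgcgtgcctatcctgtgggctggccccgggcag
Lss promoter, kidney peak, chr10:76531463-76531650, plus strand: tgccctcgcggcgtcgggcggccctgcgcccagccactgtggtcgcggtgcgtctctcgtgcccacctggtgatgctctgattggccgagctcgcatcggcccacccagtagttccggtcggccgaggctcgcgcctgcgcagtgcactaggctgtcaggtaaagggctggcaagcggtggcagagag
Insig1 promoter, whole window, chr5:28071162-28071461, plus strand: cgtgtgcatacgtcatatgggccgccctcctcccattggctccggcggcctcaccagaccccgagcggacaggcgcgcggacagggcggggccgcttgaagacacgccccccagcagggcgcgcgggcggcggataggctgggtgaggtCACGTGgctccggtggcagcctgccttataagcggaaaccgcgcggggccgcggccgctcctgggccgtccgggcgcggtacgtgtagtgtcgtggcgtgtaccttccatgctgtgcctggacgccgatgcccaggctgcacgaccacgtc
The Tada2a, Lpin2, Lipe and Tesmin sequences each hold 1 CACGTG inside the kidney peak. The Dvl2 sequence holds 3, together with 1 AACGTG. The Elovl6 sequence holds AACGTG and no CACGTG, and the Lss sequence has neither element in these letters. In the Insig1 window the single CACGTG lies 173 to 196 bp from the centres of the 3 tissues' peaks, outside each of them. The window covers only 83 of 242 bp of the liver peak, 73 of 188 bp in kidney and 55 of 198 bp in heart. The rest of each Insig1 peak could not be read, so whether it holds an E-box is unknown.

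The comparison that the gene list was made for is the share of its genes with a peak, set beside all protein-coding genes. In liver, 24 of the 41 genes (58.5%) had a peak, against 18.1% of all protein-coding genes. In kidney, 15 genes (36.6%) had one, against 18.0%. In heart, 8 genes (19.5%) had one, against 11.5%. The share in the lipid list was thus 3.23 times the background in liver, 2.03 times in kidney and 1.69 times in heart, although the order of kidney and heart by this ratio turned under 3 of 6 other settings. The 15 genes bound in kidney were 14 of the liver-bound genes and Pnpla2, and all 8 genes bound in heart were also bound in both other tissues. In all, 25 of the 41 genes (61.0%) had a peak in at least 1 tissue, against 30.6% of all protein-coding genes, and 8 (19.5%) had one in each tissue, against 4.35%. Liver alone accounted for 10 genes (24.4%, against 7.01%), liver with kidney for 6 (14.6%, against 5.42%) and kidney alone for 1 (2.44%, against 6.68%). No gene of the list was bound in heart alone, in liver and heart or in kidney and heart, patterns shown by 4.3, 1.32 and 1.57% of all protein-coding genes.

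**Figure D1:**
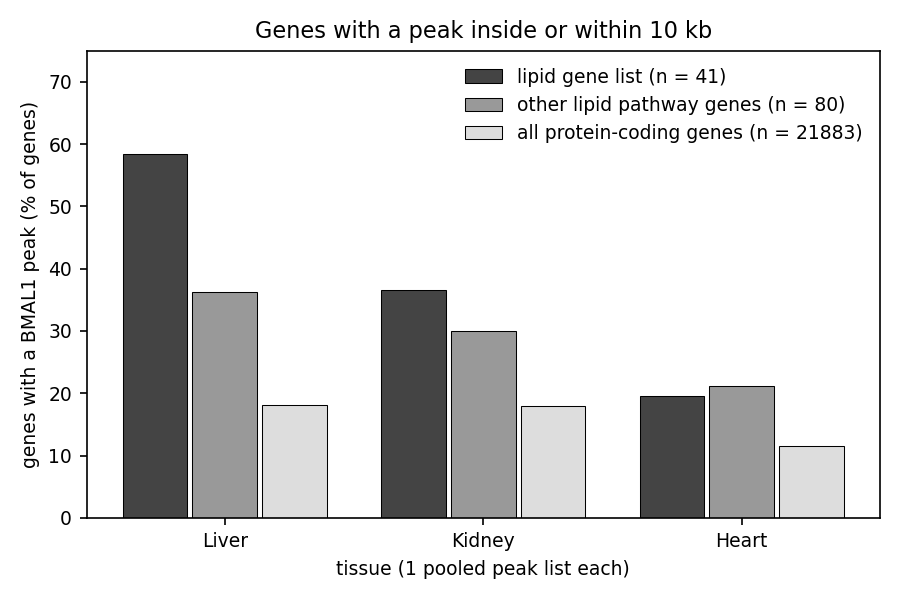
Share of genes (percent, vertical axis) with a BMAL1 peak inside or within 10 kb in the pooled list of each tissue, for the 41 lipid genes, 80 other genes of the same pathways and all 21883 protein-coding genes. The lipid bar falls from 58.5% in liver to 36.6% in kidney and 19.5% in heart, while the protein-coding bar is 18.1, 18.0 and 11.5%.

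The excess over all genes did not rest on the window of 10 kb, although each setting counts the same chosen genes. Inside the gene itself, 17 of the 41 genes (41.5%) held a liver peak against 10.2% of all protein-coding genes, 9 (22.0%) a kidney peak against 9.66%, and 6 (14.6%) a heart peak against 6.82%. The median distance from a gene of the list to its nearest liver peak was 3.63 kb, against 117 kb over all protein-coding genes. It was 53.6 kb against 127 kb in kidney and 130.0 kb against 217 kb in heart. The lipid genes are longer than most, with a median of 25.3 kb against 17.2 kb, and a longer gene offers more room for a peak. Counting only peaks within 10 kb of a gene end leaves out the middle of long genes, but a short gene still offers a smaller span. By this count the shares were 48.8% against 15.2% in liver, 34.1% against 15.7% in kidney and 17.1% against 9.25% in heart. Within 50 kb they were 75.6% against 34.0%, 48.8% against 33.1% and 34.1% against 22.7%. Counting each peak for its nearest gene alone gave 48.8% against 13.4% in liver, 26.8% against 13.1% in kidney and 19.5% against 8.74% in heart. Another gene was nearer for 6 of the 37 liver peaks and 5 of the 24 kidney peaks counted here, and for none of the 9 heart peaks. The lists also differ in length, and with the top 2519 peaks of each the shares were 43.9% against 11.5% in liver, 29.3% against 12.8% in kidney and 19.5% against 11.5% in heart. At the edge of the rule, the Acadvl peak at 9.65 kb was the farthest counted in liver and kidney. Among genes with no counted peak in a tissue, the nearest peaks were 11.6 kb from Pnpla3 in liver, 13.8 kb from Acadl in kidney and 15.6 kb from Pnpla2 in heart. In heart the farthest peak outside a gene that was counted lay 0.326 kb from Dgat2.

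**Figure D2:**
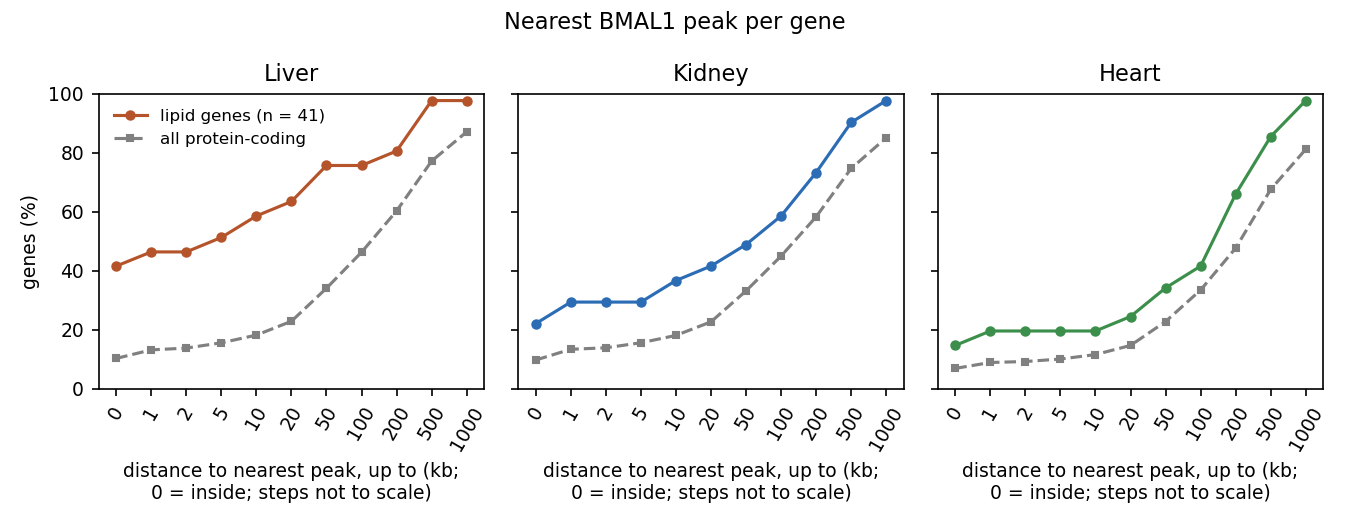
Cumulative share of genes (percent, vertical axis) whose nearest peak lies within the distance on the horizontal axis (kb, unequal steps, 0 is inside the gene), for the 41 lipid genes (circles) and all protein-coding genes (squares), 1 panel per tissue. At 10 kb the curves stand at 58.5 and 18.1% in liver, 36.6 and 18.0% in kidney, and 19.5 and 11.5% in heart.

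Sterol synthesis passes early through Hmgcs1 and later through Fdps, Fdft1 (squalene synthase), Sqle and Lss (lanosterol synthase). The membrane proteins Insig1 and Insig2 hold back activation of the pathway. Of these 7 genes, 4 had a liver peak (57.1%), 3 a kidney peak (42.9%) and 2 a heart peak (28.6%). Over all protein-coding genes the shares were 18.1, 18.0 and 11.5%. Insig1 had the strongest liver peak of the whole list. Its promoter peak (chr5:28071003-28071244 in liver) scored 163 in liver (rank 103 of 4813), 78 in kidney (rank 352 of 4034) and 112 in heart (rank 104 of 2519), with centres 288, 271 and 294 bp upstream of the gene. A weaker peak just inside Insig1 was found in liver (score 64) and kidney (score 41) and not in heart. Insig2 had peaks in the liver list alone. The main one (chr1:121327931-121328172, score 111, rank 352) was centred 27 bp from an annotated internal start, a weak one (score 21) lay 3.37 kb outside the gene, and the nearest peaks were 1160 kb away in kidney and 1060 kb away in heart.

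Fdft1 was bound inside the gene in all tissues at 1 site (chr14:63164868-63165109 in liver), 16.7 kb from the nearer gene end. The scores were 120 in liver (rank 283), 69 in kidney (rank 458) and 68 in heart (rank 302). Lss was bound at its start in liver (chr10:76531470-76531711, score 114, rank 327) and kidney (score 65, rank 513), with centres 25 and 8 bp from the gene end and no heart peak closer than 696 kb. Hmgcs1, Sqle and Fdps had no peak within 10 kb in any list, and the closest were 47.1 kb, 82.6 kb and 34.5 kb away. Within this pathway, then, the bound genes were the 2 Insig regulators and the enzymes on either side of the step that Sqle catalyses.

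Fatty acid synthesis starts with Acly, which yields cytosolic acetyl-CoA, proceeds through the acetyl-CoA carboxylases Acaca and Acacb, and ends with Fasn, the synthase. All 4 genes had a liver peak, against 18.1% of all protein-coding genes. The highest rank among these liver peaks was 2345 of 4813. The scores were 29 at Acly (rank 3282), 40 at Acaca and at Acacb (both rank 2345) and 27 at Fasn (rank 3458). The Acly peak lay 22.8 kb inside the gene, and the Fasn peak lay 5.62 kb outside it and nearest to Ccdc57. The Acacb peak was centred 248 bp outside the gene. Acaca was the only gene of the 4 with a peak in kidney or heart, and there the site was another one. Kidney (chr11:84129539-84129726, score 44, rank 1037) and heart (chr11:84129556-84129753, score 52, rank 451) shared a peak at the upstream gene end, while the liver peak (chr11:84198115-84198356) lay 68.6 kb inside, 2797 bp past an internal annotated start. The Tada2a promoter printed above underlies this kidney and heart peak, and its CACGTG was 4 bp from the kidney peak centre and 18 bp from the heart peak centre.

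Among the 9 genes of elongation and desaturation, 4 had a liver peak (44.4%, against 18.1% of all protein-coding genes). Only 1, Elovl1, had a kidney peak (11.1%, against 18.0%), and it alone had a heart peak (11.1%, against 11.5%). Outside liver this group was thus not above the background. Elovl1, an elongase of very long saturated chains, was bound inside the gene at a site common to all tissues (chr4:118428670-118428911 in liver), with scores of 45 in liver (rank 1997), 31 in kidney (rank 1729) and 25 in heart (rank 1257). In kidney a neighbouring site, 180 bp past a listed start where the common one was at 645 bp, had a higher score of 61 (rank 585) and no counterpart in the other lists. Elovl6, which lengthens palmitate, was bound at its start in liver (chr3:129532255-129532496, score 54, rank 1557), with the centre 10 bp from the gene end, and the peak covers the AACGTG printed above. Fads2, the delta-6 desaturase, had a liver peak 3.02 kb upstream (score 86, rank 654), and Elovl2 a weak one inside the gene (score 19, rank 4450). The stearoyl-CoA desaturases Scd1 and Scd2, which stand side by side on chromosome 19, had no peak closer than 224 kb in any list. Elovl3, Elovl5 and Fads1 also had none within 10 kb.

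Glycerolipid synthesis was the group bound most often outside liver. Of its 7 genes, 5 had a liver peak (71.4%), 5 a kidney peak (71.4%) and 3 a heart peak (42.9%). Over all protein-coding genes the shares were 18.1, 18.0 and 11.5%. The best kidney peaks of Gpam, Lpin2 and Agpat2 stood low in their list, at rank percentiles of 73.2, 84.3 and 97.1. Dgat2, which adds the last acyl chain of triglyceride, had the strongest kidney and heart peaks of the list. A peak just outside the gene (chr7:99182910-99183151 in liver) scored 151 in liver (rank 143), 130 in kidney (rank 105) and 131 in heart (rank 72), with centres 317, 305 and 325 bp from the gene end. Inside Dgat2 there were 4 more liver peaks and 4 more kidney peaks and none in heart. The strongest of these, 14.5 kb from the nearer gene end, scored 118 in liver (rank 296) and 61 in kidney (rank 585), and a liver peak near it scored 98 with no kidney counterpart. With 5 liver peaks Dgat2 was among 29 protein-coding genes with 5 or more (0.732% of those with any), and with 5 kidney peaks among 15 (0.38%).

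Lpin1, a phosphatidate phosphatase that makes diacylglycerol and also acts as a transcriptional coactivator, was bound at 2 sites common to all tissues. The stronger lay just inside the upstream end of the gene (chr12:16653567-16653808 in liver) and scored 110 in liver (rank 362), 62 in kidney (rank 563) and 82 in heart (rank 210). The weaker lay 34.8 kb from that end and scored 44, 46 and 35. The same 2 sites were thus found in every list, and 1 other Lpin1 peak (score 22) was in liver alone. Its relative Lpin2 had 1 peak per tissue at 3 different places. The kidney peak (chr17:71183418-71183605, score 17) was centred 20 bp from the gene start and 14 bp from the CACGTG printed above, the liver peak (score 17) lay 23.9 kb inside, and the heart peak (score 26) lay 0.666 kb from the other end. The kidney and liver peaks stood low in their lists, at rank percentiles of 84.3 and 98.5, and the heart peak stood near the middle, at 48.4.

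Gpam, which starts glycerolipid synthesis, had 2 liver peaks (scores 46 and 20) and 2 kidney peaks (scores 20 and 16), none of them overlapping. Agpat2, the next enzyme, had a liver peak inside the gene (score 45) and a different kidney peak outside it (score 14), the latter nearest to Egfl7. Lpin3 and Dgat1 had no peak within 10 kb. Dgat1, which catalyses the same reaction as Dgat2, had its nearest peaks at 24.8 kb in liver and 24.7 kb in kidney and heart.

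**Figure D3:**
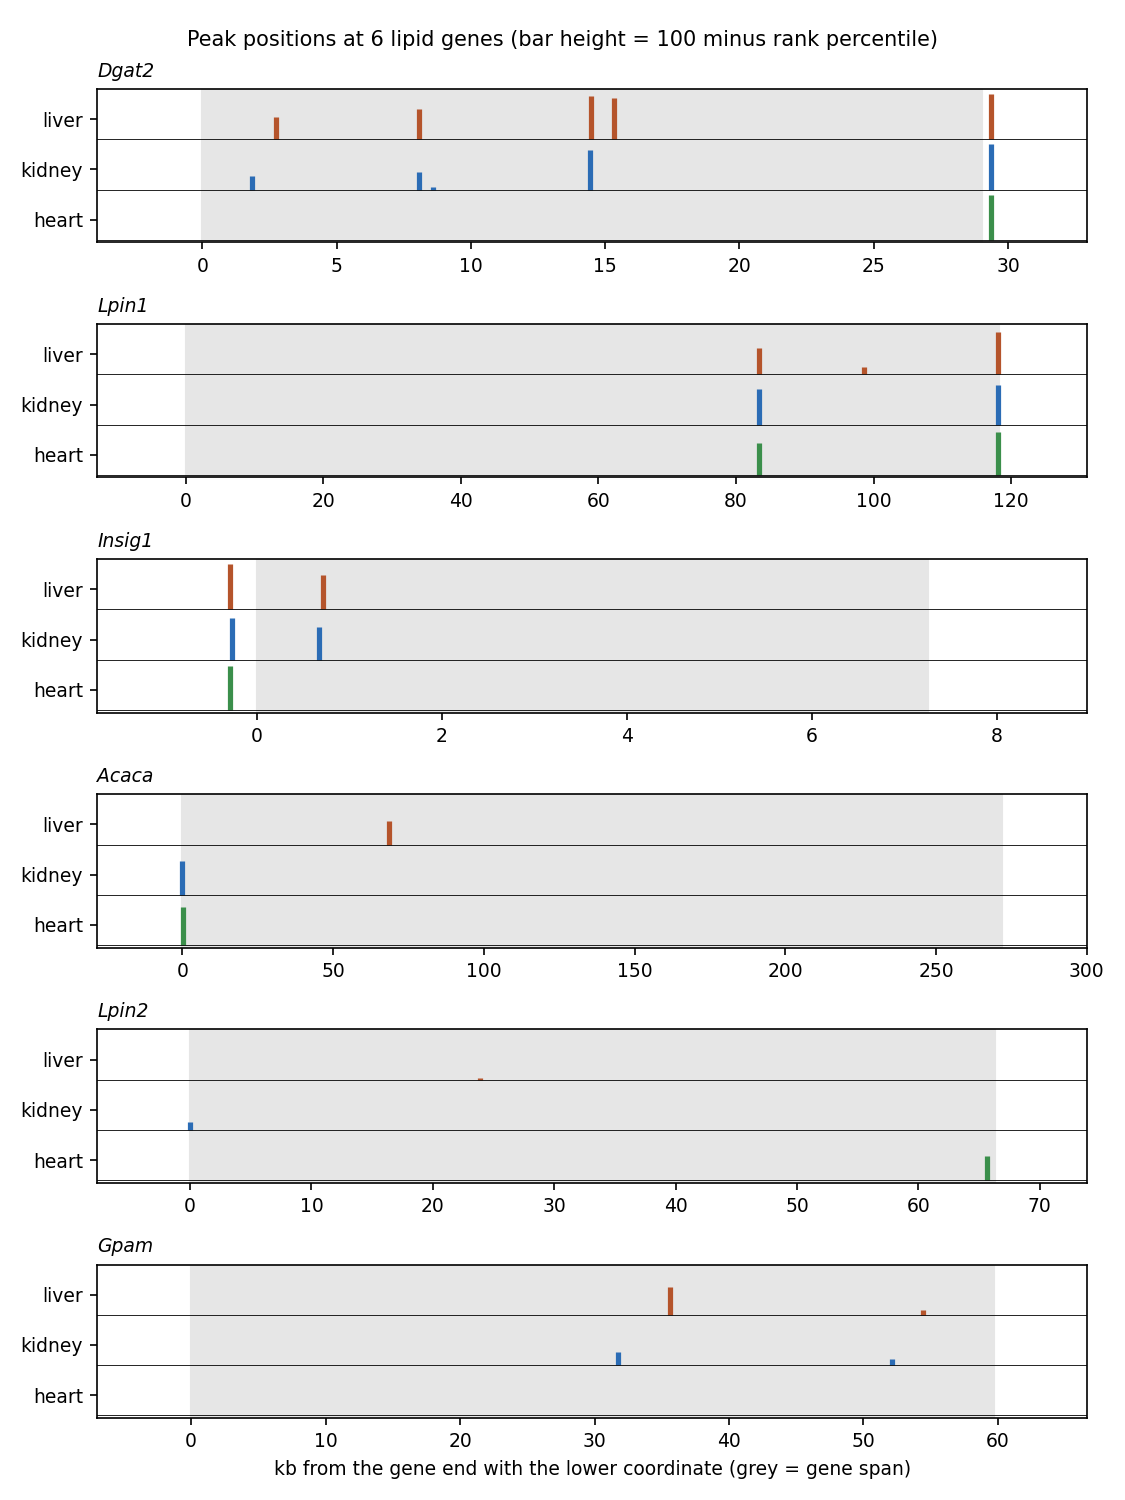
Positions of the peaks (kb from the gene end with the lower coordinate, horizontal axis) at Dgat2, Lpin1, Insig1, Acaca, Lpin2 and Gpam, with 1 row per tissue. The height of a bar is 100 minus the rank percentile of the peak in its list, and grey marks the gene. Dgat2, Lpin1 and Insig1 have sites that line up in all tissues, whereas Acaca, Lpin2 and Gpam have liver and kidney peaks at different places.

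Lipolysis was represented by Pnpla2 (adipose triglyceride lipase), Lipe (hormone-sensitive lipase) and Pnpla3. Lipe was bound in liver (chr7:25395900-25396141, score 47, rank 1896) and kidney (chr7:25396019-25396206, score 36, rank 1408) and not in heart. These 2 peaks overlapped but were not centred alike. The CACGTG of the Lipe promoter lay 27 bp from the kidney centre and 119 bp from the liver centre, at the edge of the liver peak. Pnpla2 had a kidney peak 7.53 kb outside the gene (score 34, rank 1530), at the start of Rplp2, and it was the only gene of the list bound in kidney and not in liver. Pnpla3 had none within 10 kb.

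Mitochondrial oxidation of fatty acids requires entry through Cpt1a (the liver form) or Cpt1b (the muscle form) and Cpt2, followed by the dehydrogenases Acadvl, Acadl and Acadm and the trifunctional protein of Hadha and Hadhb. Of these 8 genes, 5 had a liver peak, 2 a kidney peak and none a heart peak, where 11.5% of all protein-coding genes had one. Cpt1a was bound at 2 sites shared by liver and kidney. The one inside the gene, 2271 bp past its annotated start in liver, scored 65 in liver (rank 1157) and 40 in kidney (rank 1198). The other lay 3.57 kb beyond the far end and scored 82 and 62, but it sits on the promoter of Tesmin, whose CACGTG is 43 bp from the liver centre and 51 bp from the kidney centre. Acadvl counted through a strong peak 9.65 kb away, with scores of 147 in liver (rank 160) and 103 in kidney (rank 185), which lies on the Dvl2 promoter among 5 genes within reach. Acadm had 2 weak liver peaks inside the gene (scores 25 and 23). The liver peaks counted for Cpt2 (scores 45 and 32) and Cpt1b (score 27) were outside those genes and nearest to Czib and Chkb. Acadl, Hadha and Hadhb had no peak within 10 kb. Counting each peak for its nearest gene alone left Cpt1a and Acadm as bound in liver and Cpt1a in kidney within this group.

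Uptake of fatty acids from the blood is served by Lpl (lipoprotein lipase), the carrier Cd36 and the secreted Lpl inhibitor Angptl4. Angptl4 was bound in every tissue at 1 site inside the gene (chr17:33781089-33781330 in liver), with its centre 365, 362 and 356 bp from a gene end in liver, kidney and heart. It scored 118 in liver (rank 296), 98 in kidney (rank 216) and 101 in heart (rank 134). A second liver peak at Angptl4 scored 31. Lpl and Cd36 had no peak closer than 207 kb in any list.

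**Figure D4:**
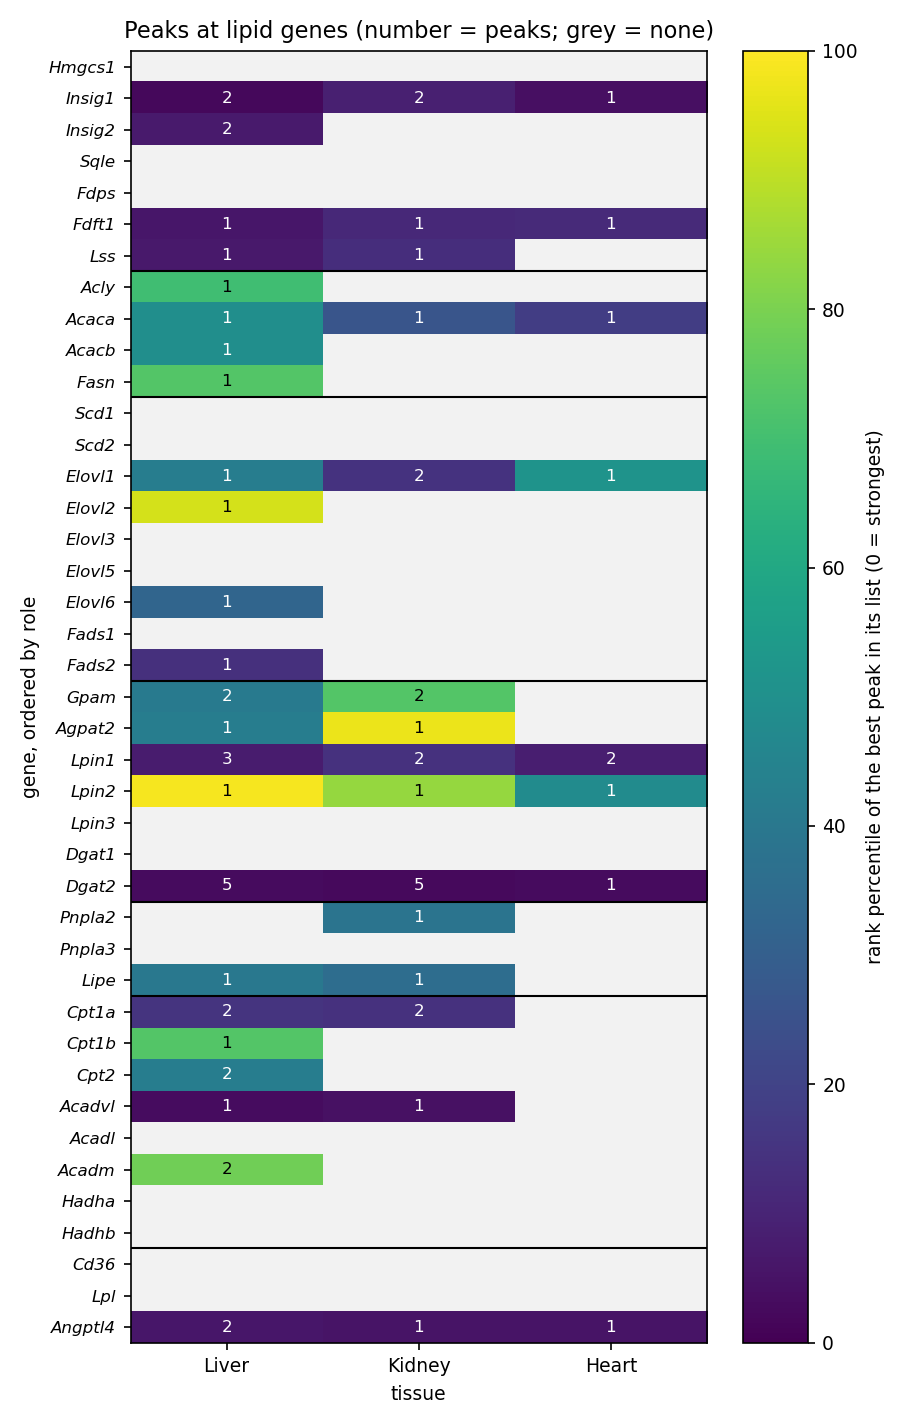
The 41 genes (rows, grouped by role with black lines) against the 3 tissues. Colour is the rank percentile of the best peak in its list (0 is the strongest), the number is the count of peaks, and light grey means that no peak lay within 10 kb. Insig1, Fdft1, Elovl1, Lpin1, Dgat2 and Angptl4 have peaks at a common site in all tissues, and 16 genes are grey throughout.

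Peaks were next compared as sites. The 25 bound genes carried 47 separate regions, where overlapping peaks of different tissues count as 1. Of these, 22 (46.8%) were found in liver alone, 8 (17.0%) in kidney alone and 1 (2.13%) in heart alone, the last at Lpin2. Over all protein-coding genes the corresponding shares were 33.0, 26.8 and 18.2%. A further 8 regions (17.0%) were common to liver and kidney, against 11.3%, and 7 (14.9%) were common to all tissues, against 6.44%. Counted per peak, 22 of the 37 liver peaks at lipid genes (59.5%) were at sites found in liver alone, against 63.1% over all protein-coding genes. In kidney the share of such peaks was 33.3% against 56.6%, and in heart 11.1% against 62.7%. The 7 common regions lay at Insig1, Fdft1, Elovl1, Dgat2 and Angptl4, with 2 at Lpin1. A common region was thus present at 6 of 41 genes (14.6%), against 3.09% of all protein-coding genes. Of the 9 heart peaks at lipid genes, 7 (77.8%) were at these regions, against 22.2% of all heart peaks at protein-coding genes.

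Among the lipid genes, as over all protein-coding genes, being bound in 2 tissues did not always mean being bound at the same site. Of 14 lipid genes with both liver and kidney peaks, 10 (71.4%) had an overlapping pair, against 80.7% of all protein-coding genes bound in both. The 4 others were Acaca, Agpat2, Gpam and Lpin2. Of 8 genes with both liver and heart peaks, 6 (75.0%) had an overlapping pair, against 66.0%. Of 8 with both kidney and heart peaks, 7 (87.5%) did, against 73.0%, Lpin2 being the exception.

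Scores and ranks were read within each list. The 37 liver peaks at lipid genes had a median score of 45.0 and a median rank percentile of 42.2, beside 42.0 and 46.4 for all liver peaks at protein-coding genes. The 24 kidney peaks had a median score of 42.5 and percentile of 27.7, beside 29.0 and 47.6. The 9 heart peaks had a median score of 68.0 and percentile of 12.1, beside 27 and 45.8. In the strongest 10% of a list were 9 of the 37 liver peaks (24.3%), 4 of the 24 kidney peaks (16.7%) and 4 of the 9 heart peaks (44.4%), against 11.2, 10.8 and 10.9%. The lists are of unequal length, so these percentiles are not a scale common to the tissues.

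Start sites were listed for 29 of the 41 genes. Within those, 9 of 28 liver peaks (32.1%) were centred within 1 kb of a start, against 31.0% over all protein-coding genes with a listed start. In kidney it was 10 of 17 (58.8%) against 39.9%, and in heart 4 of 6 (66.7%) against 40.1%. The liver comparison depended on the distance: within 5 kb of a start it was 17 of 28 peaks (60.7%) against 44.6%. These 29 genes had 38 promoter windows. CACGTG was present in 5 of the 38 (13.2%), at Elovl5, Insig1, Lipe, Lpin2 and Lpin3, against 7.84% of the windows of protein-coding genes. CACGTT or AACGTG was present in 2 (5.26%), at Acacb and Elovl6, against 4.68%. The window listed for Acaca lies elsewhere than the peak at its upstream end and held no CACGTG. Among windows that hold a peak centre, CACGTG was present in 45.4% for liver, 41.4% for kidney and 40.7% for heart. Elovl5 and Lpin3 thus had the element in a promoter window and no peak within 10 kb. Lss and, in liver, Elovl6 had a promoter peak without CACGTG in the bases read. The same held for the Insig2 peak in liver (198 bp read). For the Gpam peak in kidney it held in 188 bp of Gm31356 windows, 55 of them also in the Gpam window. It also held for the kidney peaks counted for Agpat2 (54 bp read, Egfl7 window) and Pnpla2 (141 bp read, Rplp2 window).

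A wider list of 80 other genes of the same pathways was counted in the same way. Peaks were found at 29 of them in liver (36.2%), 24 in kidney (30.0%) and 17 in heart (21.2%), again beside 18.1, 18.0 and 11.5% of all protein-coding genes. In the wider list the shares of liver and heart were closer together than among the 41 genes. Its heart share was above that of the 41 genes (19.5%), and its liver and kidney shares were below theirs (58.5 and 36.6%). Within 50 kb it was above the 41 genes in kidney (52.5% against 48.8%) and heart (37.5% against 34.1%), and below in liver (62.5% against 75.6%). Of its 17 genes of sterol synthesis, 4, 3 and 2 had a peak in liver, kidney and heart, and of its 17 genes of oxidation 6, 7 and 4. Of its 18 genes of glycerolipids and droplets, 7, 3 and 5 had one (38.9, 16.7 and 27.8%). The kidney share of these 18 was thus below the 18.0% of all protein-coding genes. Of 16 genes of fatty acid synthesis and modification the counts were 8, 6 and 3, and of 12 genes of uptake and transport 4, 5 and 3. Slc27a2, a fatty acid transporter and very long chain acyl-CoA synthetase, had a promoter peak in every tissue, with scores of 233 in liver (rank 27), 184 in kidney (rank 31) and 37 in heart (rank 723). Acsl1, the main acyl-CoA synthetase of liver and heart, was bound at its gene end in every tissue, with scores of 158 (rank 117), 88 (rank 270) and 89 (rank 182). Fabp3, the fatty acid binding protein of muscle, was bound in kidney (score 148, rank 64) and heart (score 101, rank 134) and not in liver. Thrsp, a gene tied to lipogenesis, had a liver peak of score 127 (rank 240) and a kidney peak of score 32. Mgll, which cleaves monoglyceride, had a site shared by liver (score 115, rank 314) and heart (score 69, rank 291).

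**Figure D5:**
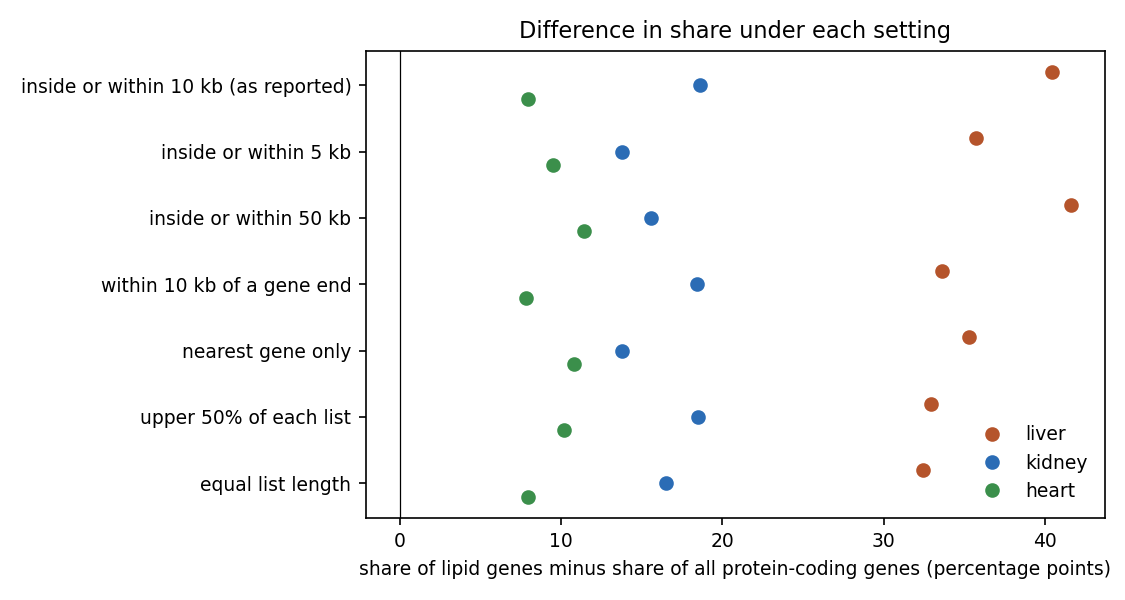
Share of the 41 lipid genes with a peak minus the share of all protein-coding genes (percentage points, horizontal axis) for liver, kidney and heart under the reported rule and 6 other settings (rows). The liver points lie between 32.4 and 41.6, the kidney points between 13.8 and 18.6 and the heart points between 7.82 and 11.4, all above 0.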

How the data were processed

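The labels give 18 libraries (ChIP and input, 3 each per tissue), prepared from tissue fixed in 1% formaldehyde and read at 75 bp. Per the labels, the authors pooled the ChIP and input replicates of a tissue to make its peak list. The submitters' processing notes name Bowtie2, SAMtools and HOMER, with no versions, and the build mm10, which is GRCm38. The score that the authors deposited with each peak has no stated meaning and was used only within its list. Depth is unknown.

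Peak centres were set against 21883 protein-coding genes of RefSeq GRCm38.p6 with Python 3.11.15 and pandas 2.3.3, and the assignment was tested on simulated peaks. Coordinates are counted from 1. Starts, strands and promoter sequences came from a RefSeq table that covers 29 of the 41 genes. The table of genes does not give exons, so sites are placed only as inside or outside a gene. Peaks in different lists that overlapped by at least 1 bp were merged into regions. Each motif was searched on both strands.

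The genes and lists were chosen with earlier results of these data known, and no set test was made: the counts are descriptions. Sites common to all tissues and the 5 best-ranked genes per tissue are given in full, and of the wider list the 3 best-ranked genes per tissue. Windows of 5 and 50 kb, gene ends only, nearest gene only, the upper 50% of each list, lists of equal length and other overlap rules were tried as alternatives.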

Additional observations from a re-analysis of the deposited data

How the results depend on the processing

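The share of lipid genes exceeded that of all protein-coding genes in each tissue under each of the 6 alternatives, and liver had the largest and heart the smallest excess in percentage points in each. As a ratio to all genes, liver was highest in each, while heart exceeded kidney within 5 kb (1.95 and 1.89 times), within 50 kb (1.5 and 1.47) and by nearest gene (2.23 and 2.05). With 2519 top peaks from every list, 18 genes were bound in liver, 12 in kidney and 8 in heart. When a peak counted for its nearest gene alone, 20, 11 and 8 genes were bound. Counts moved by more than 1.5 times in the following cases. Within 50 kb, 14 genes were bound in heart (34.1% against 22.7%) and 10 had a region common to all tissues (24.4% against 6.54%). With gene ends alone, 5 genes were bound in all tissues (12.2% against 3.52%). Within 5 kb of a start there were 17 liver peaks in place of 9 (60.7% against 44.6%). No paired analysis was possible because each peak list comes from pooled replicates, and for the same reason no replicate could be left out.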

Other observations

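Several of the lipid genes had a peak beyond 10 kb, nearest to another gene, at a site common to all tissues. Pnpla2, counted as bound in kidney alone, had such a site 15.6 kb away and nearest to Tspan4, with scores of 136 in liver (rank 208), 139 in kidney (rank 83) and 155 in heart (rank 47). For Dgat1 it was nearest to Bop1, with scores of 99, 91 and 101. Acly had one 17.6 kb away, nearest to Ttc25, with scores of 66 in liver, 47 in kidney and 51 in heart. Hmgcs1 had a weaker one about 47.1 kb away, nearest to Nim1k, with scores of 65, 28 and 27. Beyond Dgat2, on the side of Mogat2, which makes diacylglycerol from monoglyceride, liver and heart shared a peak 42.9 kb from Dgat2 in liver (scores 76 and 48). Close to it, 42.1 kb from Dgat2, liver and kidney shared a weaker peak (scores 31 and 24). Liver and kidney also shared a peak 12.2 kb from Dgat2, nearest to Uvrag (scores 44 and 37). Which gene any of these sites acts on was not measured.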
